A study of Mus musculus with 12 samples.

Results

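The genes described here encode the nuclear subunits and assembly factors of respiratory complex I, taken as every gene whose symbol in the platform annotation begins with Nduf followed by a subunit or assembly factor letter code and a number. Of 18194 genes tested, 44 met this rule: 36 named as subunits and 8 named as assembly factors (Ndufaf1 to Ndufaf8). RNA was measured in mouse embryonic stem cells on 12 microarrays of an Affymetrix mouse design. The knockout cells were CreERT2; Roninflox/flox, in which tamoxifen activates the Cre recombinase CreERT2 and the floxed Thap11 gene, which encodes the zinc finger protein Ronin, is deleted. The control cells were Roninflox/flox without CreERT2. Both lines were plated at 100000 cells per 10 cm2, received 0.25 µM tamoxifen and were collected on days 1.5, 3 and 6 of treatment. The labels give a split on day 4, which of these only the day 6 cells can have passed through. In changes from day 1.5 or 3 to day 6, effects of the split therefore cannot be told apart from those of time. Each of the 6 groups had 2 arrays. Only the knockout line carried CreERT2, and effects of the recombinase or of the line cannot be told apart from those of losing Thap11. The promoter that drives CreERT2 and the number of clones per line were not given in the sources used here. The labels do not say whether the paired arrays of a group stem from independent cultures. P-values therefore reflect the spread between these arrays, which may be technical.

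Complex I is the first and largest enzyme of the mitochondrial respiratory chain. It oxidises NADH, passes the electrons to ubiquinone and pumps protons across the inner membrane. Its catalytic core consists of conserved subunits, of which those of the membrane arm are encoded by mitochondrial DNA and those of the matrix arm by nuclear genes, and a shell of accessory subunits surrounds this core. Assembly factors build the modules of the complex and are absent from the finished enzyme. Ronin is a DNA-binding protein of embryonic stem cells that is known to bind a conserved element in promoters of housekeeping genes, mitochondrial genes among them.

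The Ronin element, 13 bases with 2 free positions, was searched on both strands of the RefSeq promoter windows of the GRCm38.p6 assembly, which run from 250 bases before to 50 bases after each gene start. The whole element was found in 1.47% of all 32851 windows, its inner 11 bases in 2% and a form of 11 bases that overlaps its 3′ end and extends beyond it in 1.31%. Among the 41 windows of 39 members, 1, 2 and 1 held these motifs in the same order. The windows that held one belong to Ndufa3 at chr7:3617123-3617422 on the + strand, Ndufv3 at chr17:31519865-31520164 on the + strand and Ndufv1 at chr19:4012706-4013005 on the - strand. They are shown because these 3 genes differed between knockout and control cells on day 6, Ndufa3 and Ndufv3 being lower and Ndufv1 higher in the knockout. Capitals mark the match, which lies at -84 to -74 from the gene start in Ndufa3, at -41 to -31 in Ndufv3 and at -105 to -93 in Ndufv1.
Ndufa3: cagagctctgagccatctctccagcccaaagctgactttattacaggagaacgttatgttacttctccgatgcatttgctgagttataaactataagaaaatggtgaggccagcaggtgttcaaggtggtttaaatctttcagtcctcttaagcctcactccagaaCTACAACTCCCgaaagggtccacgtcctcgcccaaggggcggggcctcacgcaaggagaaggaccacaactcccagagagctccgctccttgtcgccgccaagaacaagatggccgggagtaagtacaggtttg
Ndufv3: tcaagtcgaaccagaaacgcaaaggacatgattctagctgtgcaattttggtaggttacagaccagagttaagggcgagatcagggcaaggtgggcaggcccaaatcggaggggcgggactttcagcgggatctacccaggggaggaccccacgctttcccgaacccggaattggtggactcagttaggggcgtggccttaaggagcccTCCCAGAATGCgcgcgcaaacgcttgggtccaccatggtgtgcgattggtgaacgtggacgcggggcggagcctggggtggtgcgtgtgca
Ndufv1: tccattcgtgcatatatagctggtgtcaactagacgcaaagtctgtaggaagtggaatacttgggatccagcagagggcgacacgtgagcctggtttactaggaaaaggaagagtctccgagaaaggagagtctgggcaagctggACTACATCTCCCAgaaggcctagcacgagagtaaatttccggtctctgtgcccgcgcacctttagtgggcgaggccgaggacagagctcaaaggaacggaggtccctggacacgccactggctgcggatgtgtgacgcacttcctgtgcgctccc
A match is a string of letters and was not tested as a binding site. Ndufa2, Ndufa4l2, Ndufaf6, Ndufb9 and Ndufs1 had no promoter entry.

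Thap11 itself had intensities of 327.4 and 354.2 in knockout cells on day 1.5, against 1262 and 1181 in control cells. On day 3 it had 110.2 and 92.72 in knockout cells and 1279 and 1290 in control cells, and on day 6 50.64 and 51.50 in knockout cells and 1305 and 1382 in control cells. All 10 embryonic stem cell markers were measured, and their summed intensity lay between 76852 and 80997 on every array. Of them 1 was lower and 1 higher in the knockout on day 1.5, and 2 were lower and 1 higher on each of days 3 and 6. Against the controls of the other days, 2 were lower and 2 higher on day 3, and 3 lower and 1 higher on day 6. The sum of 10 extraembryonic endoderm markers was 4148 to 4242 in knockout cells and 6015 to 6181 in control cells on day 1.5. Its day 3 values were 2754 to 2817 in knockout cells and 3021 to 3057 in control cells, and on day 6 5928 to 5981 in knockout cells and 6306 to 6470 in control cells. Of these markers 7 were lower on day 1.5, 2 lower and 2 higher on day 3, and 4 lower on day 6 in the knockout. Against the controls of the other days the endoderm counts were 9 lower and 0 higher on day 3 in the limma test (median log2 fold change -1.19). On day 6, 1 was lower and 4 were higher in such a comparison, which includes the day 3 controls. The day 3 controls were lower than the day 1.5 controls in 9 of these markers (median -0.92). The day 6 controls differed from the day 1.5 controls in 0. The sum of 9 measured fibroblast markers was 895.8 to 911.9 in knockout cells and 1804 to 1876 in control cells on day 1.5. Its day 3 values were 957.6 to 983.0 in knockout cells and 645.7 to 680.0 in control cells, and on day 6 3439 to 3510 in knockout cells and 2574 to 2784 in control cells. Of the fibroblast markers 3 were lower on day 1.5, 2 higher on day 3, and 3 lower and 2 higher on day 6 in the knockout. Against the controls of the other days 4 were lower on day 3, the opposite direction, and 1 was lower and 2 higher on day 6. The dimmest fibroblast marker was the collagen gene Col3a1 at 9.12 to 11.3 in 5 groups and Lum at 11.6 in the day 6 controls. The brightest was Acta2 in knockout cells on day 6, with a mean of 1601, and Tagln in every other group, with 1214 in the day 6 controls. Single bright genes thus made up much of these sums. The part of these markers in the complex I differences was not tested. The control cells of day 3 stood apart from the other controls: 27.3% of all genes differed between them and the controls of day 1.5, against 1.57% between the controls of days 6 and 1.5. For that reason the day 3 results are also given against the controls of days 1.5 and 6. The day 6 results are also given against the controls of days 1.5 and 3, a comparison that brings the day 3 controls in. In bulk RNA, fewer cells of a type and less RNA per cell cannot be told apart.

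The complex I genes were bright on the arrays. The median over members of the mean intensity was 3476, against 111.3 over all genes, and 32 of the 44 lay in the brightest 10% of genes. The dimmest was Ndufb4 at 15.05 and the brightest Ndufa1 at 9087. Their median standard error of a knockout difference was 0.056 on the log2 scale, against 0.084 over all genes, so smaller differences could pass the test in this set than in a typical gene.

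On day 6, 15 of the 44 genes were lower and 5 higher in knockout than in control cells at a limma adjusted p under 0.05, which is 34.1% and 11.4% of the members. The same test called 15.3% of all genes lower and 17.2% higher, 32.5% in either direction. Among the 10916 genes left when the dimmest 40% were left out, 26% of genes were lower and 28.2% higher, and of the 43 members in that fit 16 were lower and 6 higher. The share of members called in either direction, 51.2% there, was near the 54.2% of all such genes. The median log2 fold change of the members was -0.058, against -0.0013 over all genes. On day 3, 7 members were lower and 5 higher, 27.3% of the members against 23.4% of all genes. By direction, 10% of all genes were lower and 13.3% higher on that day. On day 1.5, 1 member was lower and 0 were higher in the limma test, 2.27% against 9.91% of all genes (3.98% lower and 5.93% higher). At an unadjusted p under 0.05, 8 of the 44 members passed on day 1.5, and 4296 of all 18194 genes did. Without the dimmest 40% of genes, 3 members were lower and 4 higher on day 1.5, 16.3% of 43 against 22.8% of such genes (8.59% lower and 14.2% higher). On day 3, 8 were lower and 8 higher in that fit, 37.2% against 44.8% (19.5% lower and 25.2% higher). Single arrays moved the counts of days 3 and 6 in the main fit. Fits that left out 1 array also called fewer of all genes on each day, and the member counts cannot be read apart from that.

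**Figure D1:**
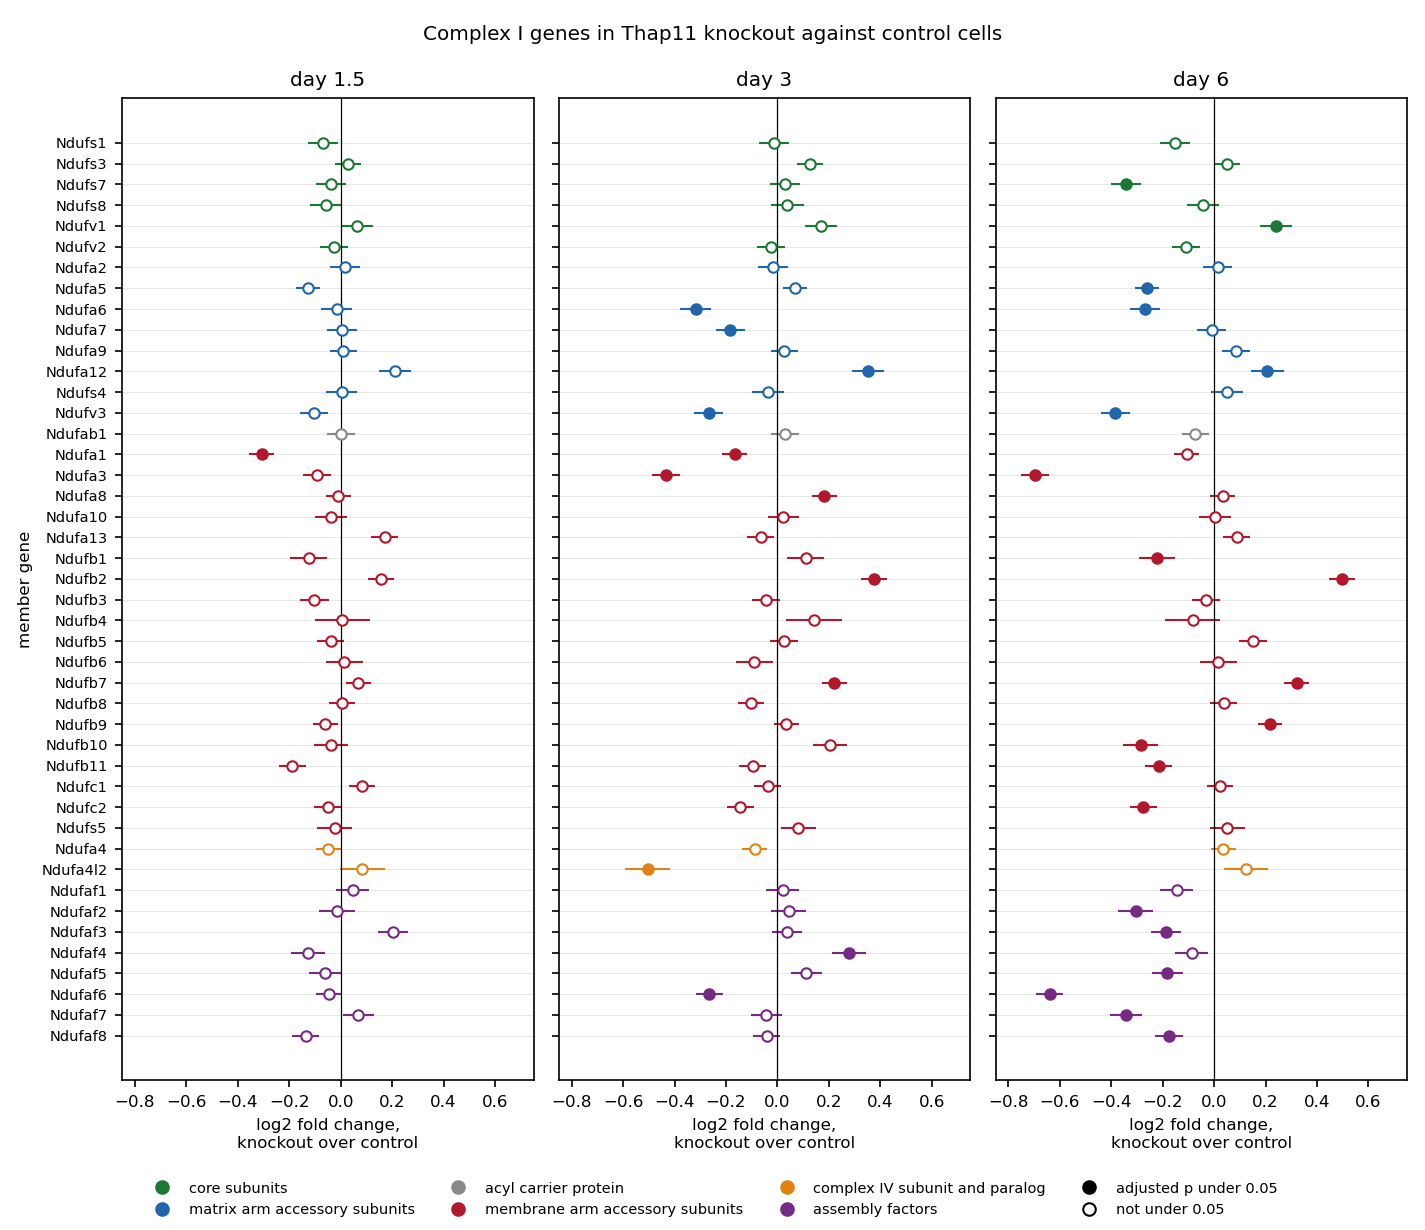
Each row is 1 of the 44 complex I genes, grouped by role, and the panels show days 1.5, 3 and 6. Points give the log2 fold change of knockout over control cells with its standard error (2 arrays per group), and filled points passed a limma adjusted p under 0.05. On day 6 all 8 assembly factors lie left of 0, while the subunits spread to both sides, with Ndufa3 at -0.70 and Ndufb2 at 0.50.

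The core subunits carry the flavin, the iron-sulfur clusters and the quinone site. Of the 6 measured by a probe set with 1 symbol, none passed the test on days 1.5 and 3, and on day 6 Ndufs7 was lower and Ndufv1 higher in the knockout. Ndufs7, which holds the last iron-sulfur cluster before the quinone site, had intensities of 3088 and 2979 in knockout cells and 3953 and 3742 in control cells on day 6. The groups did not overlap, and the knockout was at 78.9% of the control (log2 fold change -0.34 ± 0.059 SE, limma adjusted p = 0.0018). On day 3 Ndufs7 had 3449 and 3554 in knockout cells and 3574 and 3290 in control cells, values that overlapped. Ndufv1, the subunit that binds NADH and the flavin FMN, had 4344 and 4325 in knockout cells and 3686 and 3648 in control cells on day 6 (0.24 ± 0.062, adjusted p = 0.015). Ndufv2, the iron-sulfur partner of Ndufv1, had 5477 and 5381 in knockout cells and 5744 and 5982 in control cells on day 6 (-0.11 ± 0.054, adjusted p = 0.16). It did not pass the test on any day, and on day 6 neither knockout array reached the level of a control array.

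The accessory subunits of the matrix arm numbered 8. On day 6 Ndufv3, Ndufa5 and Ndufa6 were lower and Ndufa12 was higher in knockout cells. Ndufv3, an accessory subunit of the NADH module, had 2672 and 2731 in knockout cells and 3584 and 3468 in control cells on day 6 (-0.38 ± 0.055, adjusted p = 0.00068). On day 3 it had 3328 and 3489 in knockout cells and 4199 and 4008 in control cells (-0.27, adjusted p = 0.0076), and the groups overlapped on neither day. Ndufa5, of the quinone module, had 1575 and 1592 in knockout cells and 1889 and 1909 in control cells on day 6 (-0.26, adjusted p = 0.0022). Ndufa6 belongs to the LYR proteins, which bind the acyl carrier protein, and it had 1942 and 1843 in knockout cells and 2266 and 2292 in control cells on day 6 (-0.27, adjusted p = 0.0075). It had also been lower on day 3, with 1997 and 2130 in knockout cells and 2662 and 2481 in control cells (-0.32, adjusted p = 0.0047). Ndufa12, which sits where the NADH module joins the complex, had 5515 and 5330 in knockout cells and 4940 and 4465 in control cells on day 6 (0.21, adjusted p = 0.032). Its direction depended on the probe set. All 3 other Ndufa12 probe sets had a fold change below 0 on day 6, at -0.063, -0.20 and, for a dim one, -0.25. In a limma fit of every probe set, adjusted over probe sets instead of genes, the one at -0.20 passed (adjusted p = 0.041) and the brightest one did not (adjusted p = 0.070). Ndufab1, the mitochondrial acyl carrier protein, is a subunit of its own class and did not pass the test on any day at its brightest probe set, with 6020 and 6152 in knockout cells and 6418 and 6386 in control cells on day 6 (-0.073 ± 0.053).

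The membrane arm accessory subunits numbered 19, of which 5 were lower and 3 higher in knockout cells on day 6. Ndufa3, a small subunit with a single membrane helix, showed the lowest fold change of all members. It had 4806 and 4959 in knockout cells and 5261 and 5146 in control cells on day 1.5, a difference that did not pass the test (-0.092 ± 0.055, adjusted p = 0.37). On day 3 it had 3678 and 3985 in knockout cells and 5219 and 5126 in control cells (-0.43 ± 0.055, adjusted p = 0.00052). On day 6 it had 3258 and 3191 in knockout cells and 5141 and 5306 in control cells. The mean was 3224 ± 47.2 in knockout cells and 5223 ± 117 in control cells (SD, n = 2 each), a log2 fold change of -0.70 ± 0.055 with an adjusted p of 1.7e-05. The Ndufa3 level in knockout cells on day 6 was 61.7% of the control level, whereas the control arrays lay between 5126 and 5306 on all days. Both other Ndufa3 probe sets were also lower on day 6, at -0.76 and, for a dim one with a mean intensity of 32.1, at -0.70.

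Ndufb2 moved the other way. This small subunit of the distal membrane arm had 3866 and 3883 in knockout cells and 3371 and 3587 in control cells on day 1.5 (0.16 ± 0.050, adjusted p = 0.091). It had 4516 and 4527 in knockout cells and 3557 and 3411 in control cells on day 3 (0.38, adjusted p = 0.00074). It had 4775 and 4777 in knockout cells and 3380 and 3384 in control cells on day 6, or 141% of the control (0.50 ± 0.050, adjusted p = 8.4e-05). The knockout arrays were above both control arrays on each day. Ndufb7, a subunit of the intermembrane space face with a twin cysteine motif, had 6075 and 6196 in knockout cells and 4908 and 4918 in control cells on day 6 (0.32, adjusted p = 0.00098). Ndufb9, a further LYR protein, had 5752 and 5705 in knockout cells and 4904 and 4950 in control cells on day 6 (0.22, adjusted p = 0.0067).

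Of the other membrane arm subunits that were lower on day 6, Ndufc2 had 5902 and 5800 in knockout cells and 7235 and 6931 in control cells (-0.28, adjusted p = 0.0035). Ndufb10, which like Ndufb7 carries a twin cysteine motif, had 2163 and 2133 in knockout cells and 2626 and 2612 in control cells (-0.29, adjusted p = 0.0095). Ndufb11, an X-linked subunit, had 5506 and 5529 in knockout cells and 6444 and 6365 in control cells (-0.21, adjusted p = 0.012). Ndufb1 was dim, with 131.3 and 129.1 in knockout cells and 148.7 and 155.0 in control cells (-0.22, adjusted p = 0.039). In each of these 4 genes the knockout arrays lay below both control arrays on day 6. Ndufc1, which pairs with Ndufc2 in the complex, did not pass the test, with 5043 and 5169 in knockout cells and 4925 and 5135 in control cells on day 6 (0.022 ± 0.051), and the groups overlapped.

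Ndufa1, an X-linked membrane arm subunit and the brightest member, was the single one to pass on day 1.5. It had 7711 and 7623 in knockout cells and 9628 and 9352 in control cells on that day (-0.31 ± 0.048, adjusted p = 0.0053). Its difference was -0.17 on day 3 (adjusted p = 0.034) and -0.11 on day 6 (adjusted p = 0.13).

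**Figure D2:**
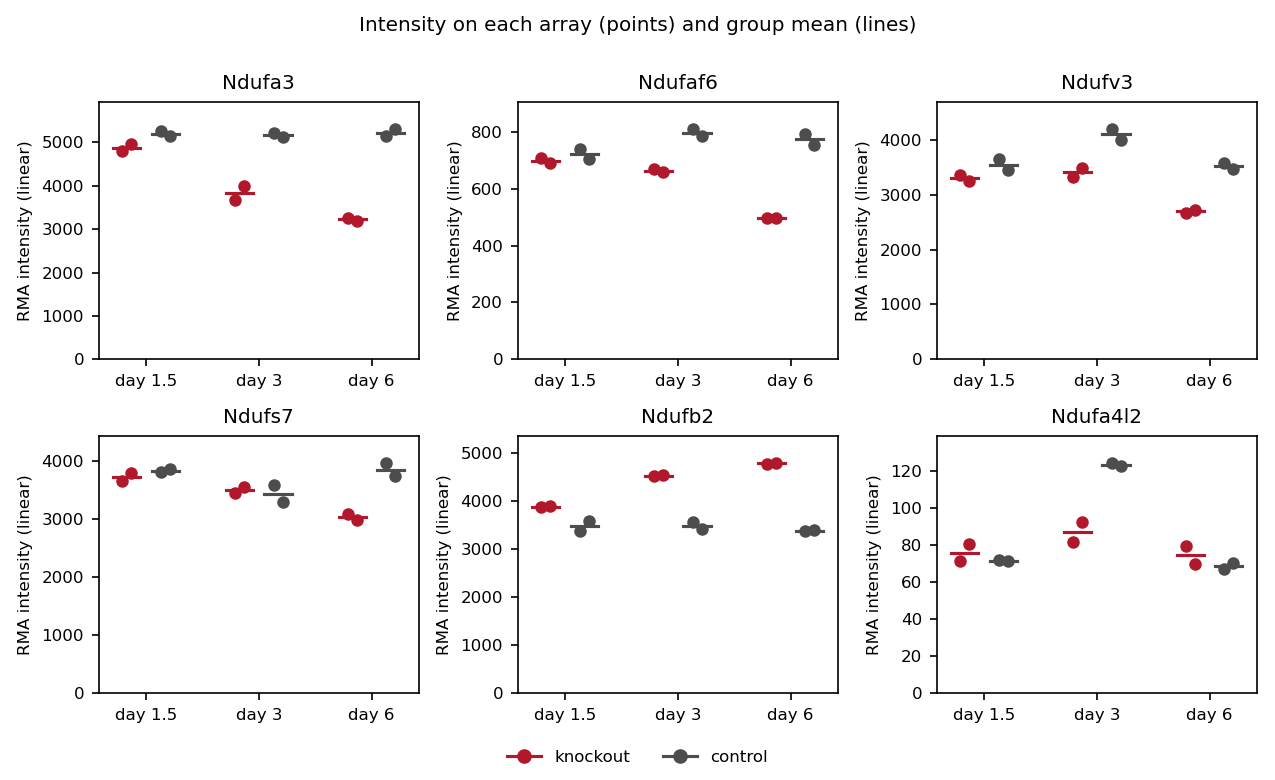
RMA intensity on a linear axis from 0 for 6 complex I genes on each array, with knockout cells left of control cells on days 1.5, 3 and 6. Points are arrays and lines are the means of the 2 arrays. Ndufa3 and Ndufaf6 are lower in the knockout on days 3 and 6, Ndufb2 is higher, and Ndufa4l2 separates on day 3, where its control arrays read 124.1 and 122.7.

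The 8 assembly factors were all measured. On day 6, 6 of them were lower and 0 higher in knockout cells, against 15.3% of all genes lower. In the fit without the dimmest 40% of genes, these 6 kept their call, and 26% of genes were lower. The median log2 fold change of the assembly factors was -0.18, against 0.0092 for the subunits and -0.0013 over all genes. Without the complex IV subunit Ndufa4 and its paralog Ndufa4l2, the subunit median was -0.0027. The fold change was below 0 in 8 of 8 assembly factors and in 17 of 36 subunits, with Ndufa4 and Ndufa4l2 among the 36. The count of 6 fell whenever a single array of day 6 was left out. Such fits leave a group with a lone array, and they also called fewer of all genes lower. The count was 3 when the arrays of day 6 alone were fitted, and that fit called 2465 of all genes lower, against 2777 in the main fit.

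Ndufaf6, a protein known from human cells as needed early in membrane arm assembly, showed the lowest fold change among them. On day 1.5 it had 709.3 and 689.3 in knockout cells and 738.7 and 705.6 in control cells, and the groups overlapped (-0.046 ± 0.052, adjusted p = 0.66). On day 3 it had 670.7 and 657.3 in knockout cells and 809.5 and 785.9 in control cells (-0.26 ± 0.052, adjusted p = 0.0057). On day 6 it had 496.1 and 498.5 in knockout cells and 794.1 and 755.5 in control cells (-0.64 ± 0.052, adjusted p = 2.0e-05), so the knockout was at 64.2% of the control. As with Ndufa3, the knockout arrays were lowest on day 6 and lay below both controls on days 3 and 6.

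Ndufaf7, a mitochondrial methyltransferase, had 404.6 and 398.5 in knockout cells and 491.9 and 527.3 in control cells on day 6 (-0.34, adjusted p = 0.0021). Ndufaf2, a paralog of Ndufa12 that acts when the NADH module is added, had 551.1 and 569.1 in knockout cells and 699.1 and 685.3 in control cells (-0.31, adjusted p = 0.0079). Ndufaf5 hydroxylates Ndufs7, the core subunit that was lower on the same day, and had 367.8 and 333.5 in knockout cells and 394.8 and 399.5 in control cells (-0.18, adjusted p = 0.0496). Its partner Ndufaf8 had 1154 and 1137 in knockout cells and 1330 and 1259 in control cells (-0.18, adjusted p = 0.031). Ndufaf3, which acts in the quinone module together with Ndufaf4, had 468.6 and 490.2 in knockout cells and 553.6 and 537.5 in control cells (-0.19, adjusted p = 0.035). Ndufaf5 passed by a narrow margin. Ndufaf1 (-0.15 ± 0.065, adjusted p = 0.13) and Ndufaf4 (-0.087 ± 0.065, adjusted p = 0.37) did not pass on day 6. On day 3 Ndufaf4 had been higher in the knockout, with 1336 and 1321 in knockout cells and 1159 and 1035 in control cells (0.28, adjusted p = 0.014).

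**Figure D3:**
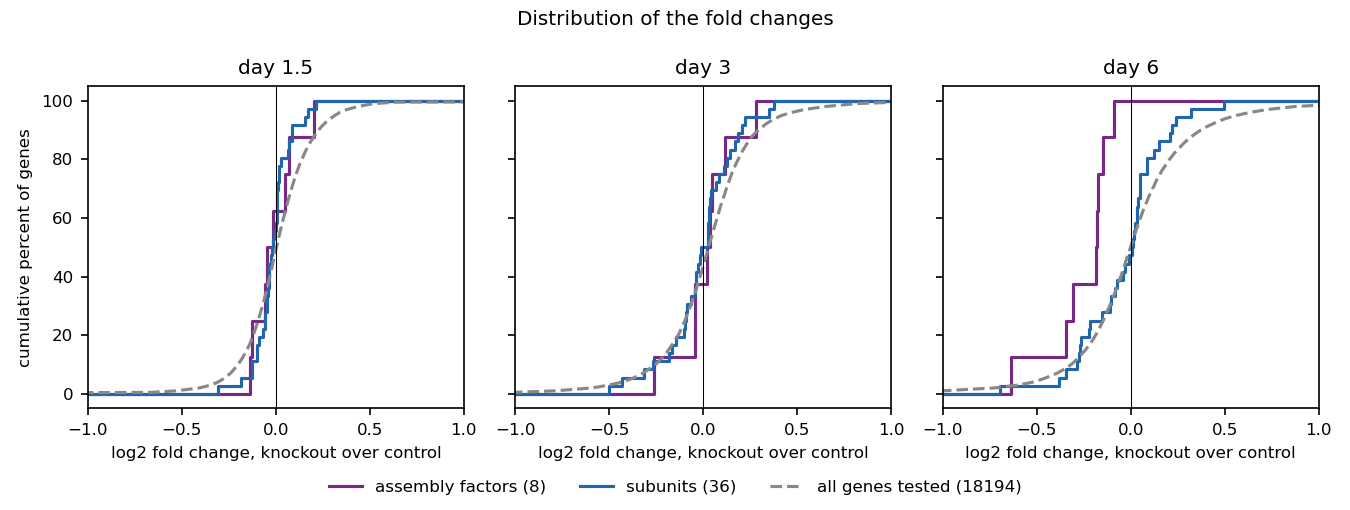
Cumulative percent of genes (vertical axis) against the log2 fold change of knockout over control cells (horizontal axis) on days 1.5, 3 and 6, for the 8 assembly factors, the 36 subunits and all 18194 genes. On day 6 the assembly factor curve reaches 100% left of 0, while the subunit curve crosses 0 beside that of all genes.

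The day 3 results depended on the control cells of that day. Of the 12 members called on day 3, 6 were genes whose day 3 controls differed in the opposite direction from the controls of day 1.5 (Ndufa4l2, Ndufa6, Ndufa8, Ndufa12, Ndufaf4 and Ndufv3). Ndufa7 (-0.18) and Ndufa8 (0.18), both accessory subunits, passed on day 3 alone. Against the controls of days 1.5 and 6 in place of those of day 3, Ndufa3, Ndufaf6 and Ndufb2 were called in the same direction, 8 lost the call and 1 was called the other way. That gene was Ndufa4l2, a paralog of the complex IV subunit Ndufa4 that is known as induced by hypoxia. On day 3 it had 81.74 and 92.61 in knockout cells and 124.1 and 122.7 in control cells (-0.50 ± 0.087, adjusted p = 0.0029). The fold change was 0.31 (adjusted p = 0.015) against the other controls, which had 71.75, 71.22, 66.91 and 70.15. In that comparison 5 members were lower and 3 higher, 18.2% of the members against 25.5% of all genes (15.5% lower and 10% higher). Set against the controls of day 1.5, those of day 3 were lower in 9 members and higher in 4. This is 29.5% of the members, against 27.3% of all genes (18.2% lower and 9.12% higher). The controls of day 6, set against the day 1.5 controls, were called lower or higher in 0 members in the limma test, while 0.473% of all genes were lower and 1.09% higher. At an unadjusted p under 0.05, 2 of the 44 members and 2773 of all 18194 genes differed between these controls. On day 6, 19 of the 20 calls were made in the same direction against the controls of days 1.5 and 3, the exception being Ndufaf5. Its control means were 371.3, 335.7 and 397.2 on days 1.5, 3 and 6. That comparison called 17 members lower and 8 higher, 56.8% of the members against 41.7% of all genes (17.1% lower and 24.5% higher). The apart position of the day 3 controls enters these counts.

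The difference between knockout and control cells itself changed between days in some members. From day 1.5 to day 6 it fell in 6 members and rose in 3, 20.5% of the members against 19.3% of all genes (10% fell and 9.32% rose). The size of the change was -0.60 in Ndufa3, -0.59 in Ndufaf6, -0.41 in Ndufaf7, -0.39 in Ndufaf3, -0.30 in Ndufs7 and -0.28 in Ndufv3 on the log2 scale. It was 0.34 in Ndufb2, 0.28 in Ndufb9 and 0.25 in Ndufb7. Between days 3 and 6 it fell in 9 members and rose in 1 (Ndufa4l2), 22.7% against 16.4% of all genes (8.75% fell and 7.69% rose). Of these 9, 5 were assembly factors and 4 were subunits (Ndufa3, Ndufa5, Ndufb10 and Ndufs7). Since days 3 and 6 were measured against their own controls, the apart position of the day 3 controls enters the second contrast and not the first.

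Over the 3 days, 25 members passed the test at least once and 19 did not. Of all genes, 9.91%, 23.4% and 32.5% passed on days 1.5, 3 and 6, and the share that passed at least once was not counted. All 7 members that passed on both days 3 and 6 had the same direction on both, and the matching share of all genes was not counted. No called member had overlapping arrays on days 3 or 6, which with 2 arrays per group largely follows from the call itself. Members not called on day 6, such as Ndufv2 and Ndufb5, also had arrays that did not overlap on that day. The share of all genes without overlap was not counted. The 19 members that passed on no day had fold changes between -0.10 and 0.17 on day 1.5, between -0.10 and 0.14 on day 3 and between -0.15 and 0.15 on day 6. The brightest of them was Ndufa4, a protein named for complex I that is a subunit of complex IV. It had 7459 and 7334 in knockout cells and 7049 and 7391 in control cells on day 6 (0.035 ± 0.048), and the groups overlapped. A difference under the test's threshold does not show that the levels were equal. The summed intensity of all members was 147158 to 148801 in knockout cells and 149429 to 151465 in control cells on day 1.5. On day 3 the sums overlapped, with 146666 to 148303 in knockout cells and 146546 to 153434 in control cells. On day 6 the sum was 146521 to 147247 in knockout cells and 150016 to 150040 in control cells.

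Several members were measured by more than 1 probe set. The probe sets used for 10 members, Ndufa3, Ndufa12, Ndufaf7, Ndufc2 and Ndufv1 among them, carry a suffix that marks probes shared with other transcripts. Of 44 other probe sets with a single symbol, 20 belonged to members called on day 6, and 17 of these 20 had the direction of the brightest one. The 3 exceptions are the 3 other probe sets of Ndufa12. P-values of the probe sets that follow are from the fit of every probe set. A dim Ndufab1 probe set, with a mean intensity of 62.03, was higher in the knockout on day 6 at 112 ± 7.0, against 52.9 ± 2.3 in control cells (SD, n = 2 each, log2 fold change 1.08, adjusted p = 0.00023), although the brightest one was not. Probe sets shared with other genes were outside the rule and are given as such: the one for Ndufa11 and Ndufa11b with a mean intensity of 3568 was higher on day 6 (0.41, adjusted p = 0.0023). The one for Ndufb4, Ndufb4b and Ndufb4c with a mean intensity of 3468 was lower on day 6 (-0.22, adjusted p = 0.033), whereas the probe set of Ndufb4 alone was the dimmest of the members.

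**Figure D4:**
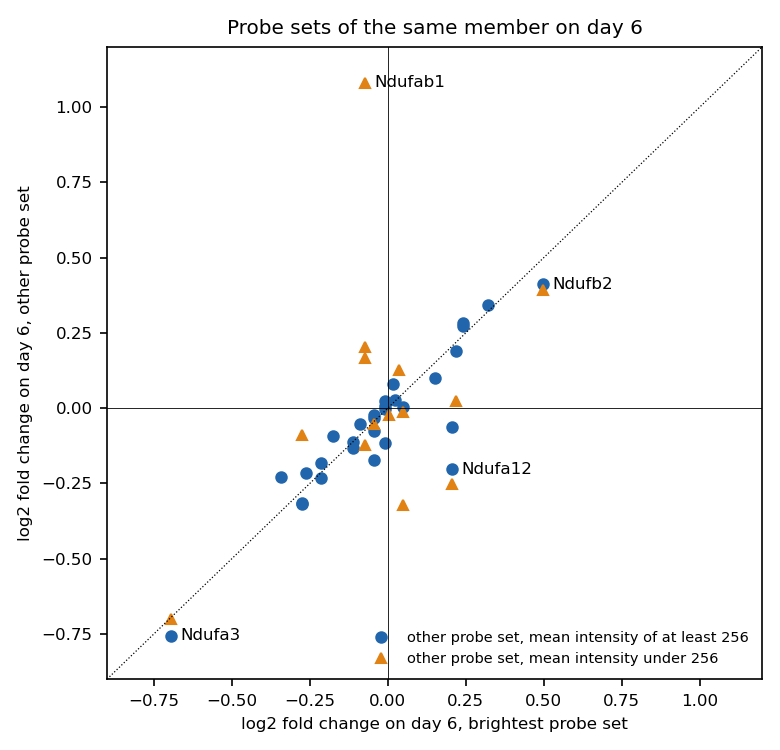
Log2 fold change of knockout over control cells on day 6 for the brightest probe set of a member (horizontal axis) and each of the 44 other probe sets of the same member (vertical axis), with triangles for a mean intensity under 256. Most points follow the dotted line of equal values. Points off it include the dim Ndufab1 probe set at 1.08 and the 3 Ndufa12 probe sets at -0.063, -0.20 and -0.25, all below 0 while the brightest is at 0.21.

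The pathway also includes assembly and import factors that do not carry the Nduf name, of which 13 of 21 listed genes were measured. On day 6, 5 of these were lower and 3 higher in the knockout, while 15.3% of all genes were lower and 17.2% higher. Against the controls of days 1.5 and 3, 4 were lower and 3 higher, and Acad9 lost its call. That comparison called 17.1% of all genes lower and 24.5% higher. Aifm1, which with Chchd4 imports subunits into the intermembrane space, had 1737 and 1745 in knockout cells and 2524 and 2500 in control cells on day 6 (-0.53 ± 0.045). Nubpl, which delivers iron-sulfur clusters to complex I, had 836.8 and 809.1 in knockout cells and 1080 and 1147 in control cells (-0.44 ± 0.062). Ecsit and Acad9 act together with Ndufaf1 in the complex that assembles the proximal membrane arm, and their fold changes were -0.39 and -0.23. Tmem70, whose main known role is in the assembly of ATP synthase, was at -0.22. Timmdc1, a membrane arm assembly factor, had 546.9 and 562.5 in knockout cells and 416.6 and 419.2 in control cells (0.41 ± 0.047), and it was also higher on day 1.5 (0.43). The other genes that were higher on day 6 were Dmac2 (0.30) and the dim Tmem126b (0.53). On day 3 Dmac2 (0.40), Ecsit (0.23) and Dmac1 (0.19) were higher and Nubpl (-0.33) and Tmem70 (-0.19) were lower. Of all genes, 10% were lower and 13.3% higher on that day. The day 3 counts of these genes depended on the controls of that day, which were lower than the day 1.5 controls in 5 of the 13 genes. Over all genes, 18.2% were lower in the day 3 controls. Against the controls of days 1.5 and 6, 5 genes were lower, Nubpl and Tmem70 among them, and Timmdc1 alone was higher (0.16). Dmac2 (0.083), Ecsit (0.025) and Dmac1 (0.040) did not pass. In that comparison 15.5% of all genes were lower and 10% higher.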

How the data were processed

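RNA of 12 samples was hybridised to Affymetrix arrays. The authors deposited 1 intensity per probe set and array, computed by RMA per the submitters' processing notes. RMA corrects background, places the arrays on a common distribution and summarises probes, so a shift of total RNA per cell would not be seen. With a range of 5.511 to 34993 the deposited intensities are linear, and their log2 was tested. Detection calls and scan dates were not used here. The number of arrays limits the precision.

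The platform annotation gave 1 symbol to 34958 of 45101 probe sets, several to 932 and none to 9211. The brightest probe set over all arrays stood for a gene. All 44 members matched a RefSeq gene by gene ID. limma 3.58.1 in R 4.3.3 fitted a mean per group over 12 arrays with eBayes (6 residual and 3.04 prior degrees of freedom), with Benjamini-Hochberg adjustment of two-sided p-values over 18194 genes and a threshold of 0.05. The fit was tested on simulated data. Summed intensities and mean ± SD are on the linear scale, and fold changes are log2, knockout over control, with SE. Promoter sequences are RefSeq's for GRCm38.p6.

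Values of all arrays were to be given for members called with an absolute log2 fold change of at least 0.5 and for the 4 brightest uncalled members. Those of further called members were added after their values were seen. The members, lists, motifs and markers were chosen with earlier results of these data known. Set tests were not run. The alternatives were a replicate term, the arrays of the day alone, eBayes with trend and robust, leaving out dim genes, the mean of all probe sets, centring, quantile normalization, other controls and leaving out each array.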

Additional observations from a re-analysis of the deposited data

Results flagged for a closer look

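Some members differed between days in the test of the change of the knockout difference (limma, adjusted p under 0.05, log2 scale). For day 6 minus day 1.5 the values were -0.60 in Ndufa3, -0.39 in Ndufaf3, -0.59 in Ndufaf6, -0.41 in Ndufaf7, -0.30 in Ndufs7 and -0.28 in Ndufv3. They were 0.34 in Ndufb2, 0.25 in Ndufb7 and 0.28 in Ndufb9. For day 6 minus day 3 they were -0.26 in Ndufa3, -0.33 in Ndufa5, -0.35 in Ndufaf2, -0.37 in Ndufaf4, -0.29 in Ndufaf5, -0.37 in Ndufaf6, -0.30 in Ndufaf7, -0.49 in Ndufb10 and -0.37 in Ndufs7, and 0.63 in Ndufa4l2. The changes from day 3 were measured against controls of day 3 that stood apart from the other controls.

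Probe sets outside the members' own measurement also passed the test. Shared probe sets of Ndufa11 and Ndufa11b were higher in the knockout on day 6, at 0.41 and, for a dim one, 0.38. Probe sets shared by Ndufb4, Ndufb4b and Ndufb4c were lower in the knockout, at -0.33 and -0.25 on day 3 and at -0.22 for the first of them on day 6. A dim probe set shared by Ndufb2 and Adck2 was at 0.36 on day 3. Among second probe sets of members, that of Ndufab1 was at 1.08 on day 6, that of Ndufa12 at -0.20 on day 6 and that of Ndufv1 at 0.24 on day 3.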

How the results depend on the processing

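Of 33 knockout results for single members, 11 kept their direction and call under every alternative run: Ndufa3 and Ndufb2 on days 3 and 6, and Ndufa5, Ndufaf6, Ndufaf7, Ndufb7, Ndufc2, Ndufs7 and Ndufv3 on day 6. Those reversed were Ndufa12, at -0.068 on day 3 and -0.078 on day 6 with the mean of all probe sets, and Ndufa4l2, at 0.31 on day 3 against the controls of days 1.5 and 6. With the arrays of the day alone, 0 members were lower on day 1.5, 2 lower and 2 higher on day 3, and 3 assembly factors lower on day 6. Of all genes, 209 were lower on day 1.5 in that setting, and 1122 were lower and 1384 higher on day 3. The main fit had 724 lower on day 1.5, and 1825 lower and 2425 higher on day 3. With eBayes trend and robust, 4 members were lower and 4 higher on day 1.5, and 11 lower and 8 higher on day 3. Of all genes, 1079 were lower and 1677 higher on day 1.5 with that setting, and 2252 lower and 3007 higher on day 3. With that setting the change to day 6 fell in 10 and rose in 6 members from day 1.5, and rose in 5 from day 3. Over all genes it fell in 2430 and rose in 2255 from day 1.5, and rose in 1905 from day 3. In the main fit these counts were 1821, 1695 and 1399. With dim genes left out, 3 members were lower and 4 higher on day 1.5 and 8 were higher on day 3. The change to day 6 fell in 10 members and rose in 5 from day 1.5, and rose in 2 from day 3. Of the 10916 genes in that fit, it fell in 2210 and rose in 1935 from day 1.5, and rose in 1656 from day 3. Centring gave 3 members lower on day 1.5 and 5 that rose from day 1.5 to day 6, and quantile normalization 2 lower on day 1.5. Over all genes, centring gave 1108 lower on day 1.5 and 2158 that rose, and quantile normalization 847 lower on day 1.5. Against other controls, 3 were higher on day 3 and 8 on day 6, all 8 of them subunits. Leaving out 1 array, with the lone array of a group assumed to vary like the other groups, left 1 lower and 0 higher on day 1.5 and gave 4 to 7 lower and 2 to 7 higher on day 3, and 8 to 12 lower and 3 to 4 higher on day 6. On day 6 it gave 5 to 8 subunits lower, 3 to 4 subunits higher and 3 to 4 assembly factors lower. Fewer of all genes were also called on each day in these fits, and the member counts cannot be read apart from that. The cause of these changes was not tested.

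Same-numbered arrays of the same day showed no shared deviation (correlations -0.0038, -0.057 and 0.028). Between days, the highest value was 0.17, for the controls of days 1.5 and 3. These correlations cannot show whether same-numbered samples were handled together. With a replicate block, 6 members were lower and 5 higher on day 3 and 14 lower and 5 higher on day 6, and 47 of 52 results for single members kept their call. Over all genes, 1803 were called on day 1.5, against 455 with the arrays of the day alone, 2756 with eBayes trend and robust, and 714 to 833 without 1 array. On day 3, 4250 were called, against 2506 with the arrays of the day alone and 2727 without knockout replicate 1. Of the day 1.5 calls, 59.8% were higher in the knockout, against 39.6% after centring. On day 3 that share was 57.1%, against 39.3% with the other controls.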

Other observations

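Calls on day 6 were also counted in complexes II to V. Of the nuclear genes listed and measured, 1 of 4 in complex II, 3 of 9 in complex III and 1 of 9 in complex IV were lower in knockout cells. In complex IV 1 gene was higher, and in ATP synthase 2 of 14 were higher. Over all genes tested, 15.3% were lower and 17.2% higher on that day.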
